A study of Mus musculus with 4 samples.

Results

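Desmosome genes were examined in 4T1-T cells, a clone of 4T1, a mouse mammary carcinoma line, in which Asns, the gene of asparagine synthetase, had been silenced. Both groups carried the silencing and both were grown in DMEM. Per the labels the groups differed in asparagine, which was absent from the medium of 2 libraries and present in that of the other 2, and the libraries are called Asn-free A and B and Asn-fed A and B below. RNA sequencing gave read counts for 23481 genes, and 10 of these rows are the desmosome genes described here: Dsp, Dsg2, Dsg3, Dsc2, Dsc3, Jup, Pkp1, Pkp2, Pkp3 and Perp. The 10 were chosen by gene symbol, in a choice made with earlier results of the same comparison known, including the call for Dsp. Their fold changes and calls are therefore given as a description of these libraries, taken from a test over all genes, and the counts and medians over the 10 below are descriptions too, from which nothing further is read.

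Desmosomes are the spot-like junctions that tie the keratin filaments of neighbouring epithelial cells to each other. Desmogleins and desmocollins are cadherins that span the membrane and bind across the gap between cells. Inside the cell, plakoglobin and the plakophilins, proteins with armadillo repeats, hold the cadherin tails and recruit desmoplakin, the plakin that grips the filaments. Perp is a membrane protein with 4 spans that stratified epithelia need for stable desmosomes, and it is also a known target of p53. In simple and mammary epithelium the usual cadherins are desmoglein 2 and desmocollin 2, whereas desmoglein 3 and desmocollin 3 belong mainly to basal and stratified epithelium.

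Without asparagine, transcripts of the desmosome genes Dsg2, Perp and Dsp were more abundant, by 2.28-fold, 1.83-fold and 1.77-fold, and these 3 passed the edgeR quasi-likelihood test over all genes (adjusted p = 0.00678, 0.0144 and 0.0145). Dsg2 encodes the adhesive cadherin, Perp the membrane protein and Dsp the filament anchor. The remaining members with enough reads for a test, Dsg3, Pkp1, Pkp2, Jup, Pkp3 and Dsc2, were not called. Dsc3 was nearly absent from the cells in either medium. No member was called lower.

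Gene counts per library ran from 17977552 to 30260582, and the counting error of Dsp, Perp, Dsg2, Pkp2, Jup and Pkp3 was 1.59% to 5.08% of the count in a library. Asn-free A stood apart, with 56.6% of all reads outside annotated features against 46.3% to 49.3% in the others, and with 3.53% of its gene counts on Rn45s, the ribosomal RNA precursor, against 0.884% to 1.66%. Each share's 95% Wilson interval, for counting error only, was at most 0.0258 percentage points wide. Asns itself was listed at 75.0 and 89.2 CPM (counts scaled to a common library total, with TMM factors) in Asn-free libraries A and B and at 103 and 101 CPM in Asn-fed A and B, and no unsilenced library was analysed here. The cells are labelled as breast cancer cells, and the 5 epithelial markers Epcam, Krt8, Krt18, Cdh1 and Cldn7 summed to 891 to 905 CPM without and 745 to 825 CPM with asparagine. Their members differed: Epcam was called higher without asparagine (log2 fold change 0.68, edgeR adjusted p = 0.0368), Cldn7 and Cdh1 had 0.96 and 0.50 and were not called, and Krt18 and Krt8 had -0.02 and -0.13. Leukocyte markers summed to 6.72 to 7.83 CPM over all libraries and endothelial markers to 0.447 to 0.801 CPM. Of 5 cornified keratinocyte markers, Krt1, Ivl and Lor had 0 counts in every library, and Krt10 alone of those in the table had reads. Fibroblast markers summed to 18.5 and 23.3 CPM without and 43.4 and 41.3 CPM with asparagine, nearly all from Pdgfra, which was called lower without asparagine (-1.03, edgeR adjusted p = 0.0221), with Dcn, Lum and Pdgfrb at 3 counts or fewer in each library. Cardiomyocyte markers, included because heart muscle is rich in desmosomes, summed to 97.7 to 100 CPM without and 54.2 and 56.0 CPM with asparagine. That sum was almost all Tnnt2, called higher without asparagine (0.85, edgeR adjusted p = 0.0138), since Myh6 and Actn2 had at most 5 counts in a library. The part of these markers in the desmosome values was not tested. In bulk RNA, more cells that express a gene and more of its RNA per cell cannot be told apart.

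The members spanned more than 3 orders of magnitude in level. Levels are compared between genes as CPM per kilobase of exon, using the union of each gene's exons in GENCODE M21, and as the mean ± SD over the 4 libraries. Perp was the most abundant, at 43.2 ± 14.8 CPM per kb, and made up 52.7% of the summed level of the 10 genes. Dsp followed at 14.4 ± 4.61 CPM per kb, and each of these was above the next gene in every library. Below them came Pkp2 (6.34 ± 1.25), Pkp3 (5.46 ± 0.552), Jup (5.28 ± 1.05) and Dsg2 (5.24 ± 2.37 CPM per kb). Their ranges over the 4 libraries overlapped, but these ranges and the SDs span both media. Within each library Pkp2 was above Pkp3 and Jup. With asparagine Dsg2 was the lowest of these genes (3.15 and 3.24 CPM per kb). Without it Dsg2 was above Pkp3 and Jup (7.41 and 7.17 CPM per kb). Dsc2 (0.694 ± 0.0604) and Pkp1 (0.604 ± 0.259 CPM per kb) also overlapped each other, a step below Dsg2 in every library. Dsg3 at 0.101 ± 0.129 and Dsc3 at 0.0152 ± 0.0175 CPM per kb came last and overlapped. With the longest annotated transcript as the length, Pkp2 had 11.6, Jup 10.6, Dsg2 7.52 and Pkp3 6.76 CPM per kb, so the order among these depends on the length used. For scale, E-cadherin of the adherens junction (Cdh1) had 71.1 CPM per kb and the keratin genes Krt8 and Krt18 had 111 and 172 CPM per kb.

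**Figure D1:**
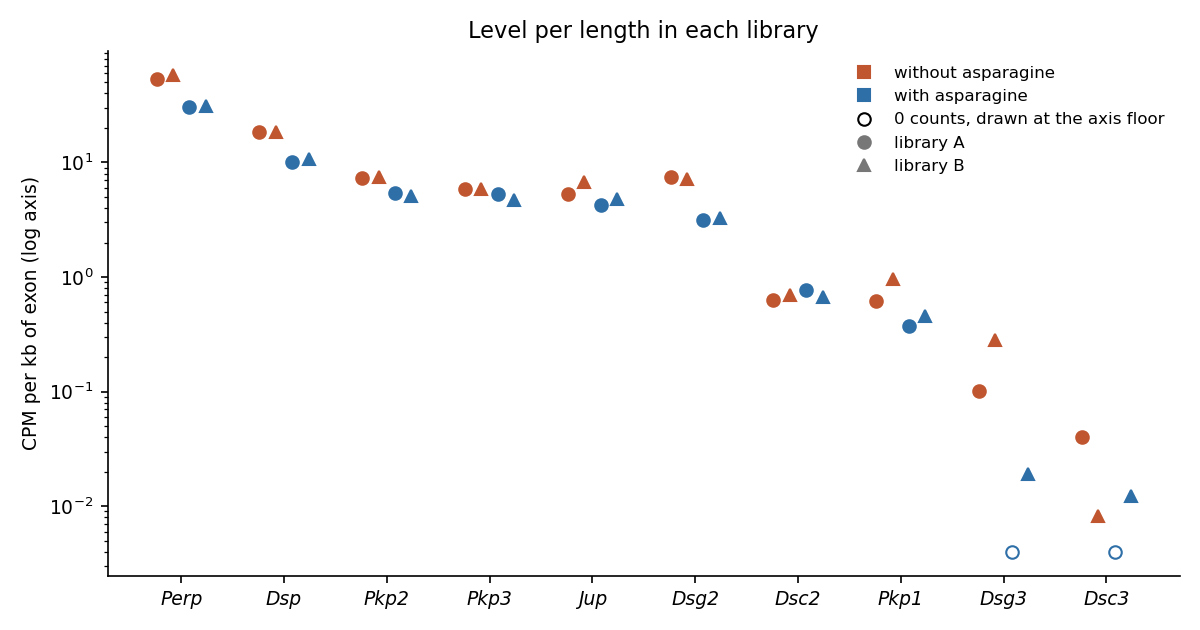
Level per length of the 10 desmosome genes in each library, as CPM per kb of exon on a log axis, with orange for libraries without and blue for libraries with asparagine, circles for A and triangles for B, and open symbols at the axis floor for 0 counts. Perp and Dsp lie above the rest in every library, and Dsg3 and Dsc3 lie lowest.

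Summed over the 10 genes, the level per length was 99.1 and 106 CPM per kb in Asn-free libraries A and B and 59.7 and 60.7 CPM per kb in Asn-fed A and B. Of the 9 genes that entered the test, 8 had a positive log2 fold change (without minus with asparagine) and 3 were called higher, while 0.771% of the 12843 genes tested were called higher and 1.07% lower. The median of the 9 was 0.82 on the log2 scale, against 0.01 for all genes tested. In 8 of the 9 both libraries without asparagine lay above both with it, and in 0 they lay below, which 26.1% and 26.4% of all tested genes did. Dsg3 passed the filter on low counts only through the group where it was high, and without it the median of the remaining 8 was 0.66. In 7 of those 8 both libraries without asparagine lay above both with it, and in 0 they lay below. Dsc3 did not pass. At an unadjusted p under 0.05, 7 of the 9, Dsg3 among them, were higher and 0 lower by edgeR, against 8.65% and 9.48% of all tested genes. By limma-voom 3 were called higher and 0 lower (0.763% and 1.07% of all genes), and by DESeq2 4 and 0 (1.32% and 2.01%), with Dsg3 as the fourth. Leaving out a library moved both the members called higher and the share of all genes called higher. There were 7 members without Asn-free A, where 6.94% of all genes were called higher, and 5 without Asn-free B, where 18.9% were. Only Dsg2 was called without Asn-fed A or without Asn-fed B, where 0.212% and 0.182% of all genes were. Without Asn-free B the median was 0.55. A fit with 1 library left in a group takes that group's spread from the other group. Chi-square per degree of freedom between the 2 libraries of a group, a measure of how far they differ beyond counting error, was 44.8 without and 5.28 with asparagine. The borrowed spread was thus unlike that of the reduced group, and calls from these fits are unsure.

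**Figure D2:**
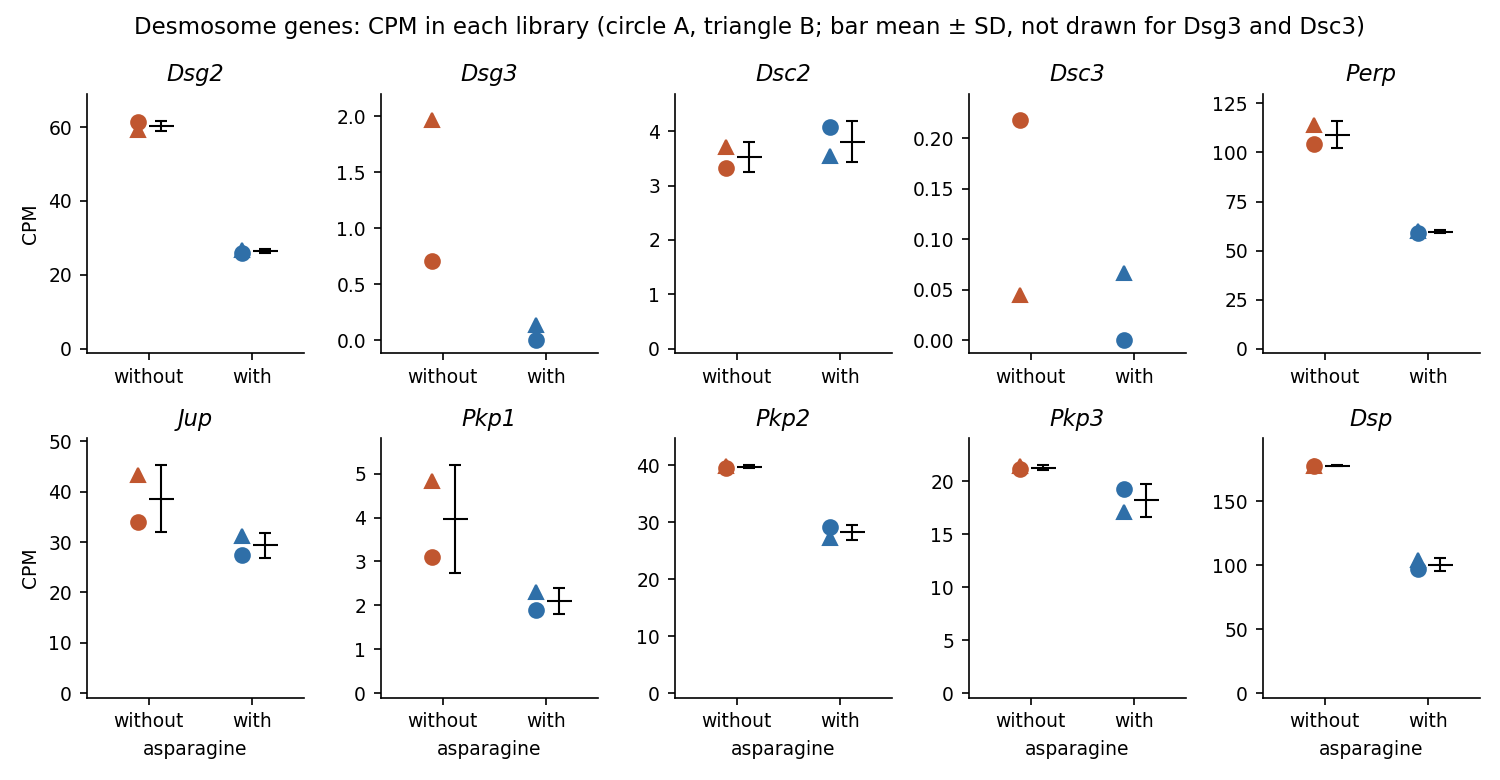
CPM of each desmosome gene in each library on linear axes that include 0 and differ between panels, with circles for library A, triangles for library B, and bars for the mean ± SD (n = 2), not drawn for Dsg3 and Dsc3. Both orange symbols lie above both blue ones for every gene except Dsc2 and Dsc3.

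Desmoglein 2 (Dsg2), the desmoglein of simple epithelia, carried nearly all desmoglein reads. It was at 61.3 CPM in Asn-free A and 59.3 CPM in Asn-free B, and at 26.0 and 26.8 CPM in Asn-fed libraries A and B. The groups were far apart and each was tight. The means were 60.3 ± 1.41 CPM and 26.4 ± 0.569 CPM (SD, n = 2 each), and the log2 fold change was 1.19 ± 0.10 (SE, edgeR adjusted p = 0.00678). Dsg2 kept its call with any library left out, at log2 fold changes of 1.16 to 1.21, although the adjusted p was 0.0492 and 0.0496 without Asn-fed A and without Asn-fed B. In GENCODE M21, 3.99% of its exon bases overlap Gm16090, an antisense gene, and reads of the pair cannot be told apart where strand was not used.

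Desmoglein 3 (Dsg3), the desmoglein of basal keratinocytes and the main antigen of pemphigus vulgaris, was barely present. It had 13 and 44 reads in Asn-free libraries A and B and 0 and 4 in Asn-fed libraries A and B. Most of its reads came from a single library, and those with asparagine were at or near 0. The summed reads gave a ratio of rates of 18.8, with a 95% interval of 6.96 to 71.4 that covers counting error only. In edgeR the log2 fold change was 4.12 ± 0.88 (SE), a fitted value that rests on few reads, and it was not called (adjusted p = 0.0805). The log2 fold change was 4.64 without Asn-free A, 3.17 without Asn-free B and 3.30 without Asn-fed A, so the size depends on the library. Desmoglein 3 made up 1.35% (exact 95% interval 0.722% to 2.3%) of the desmoglein level per length in Asn-free A and 3.79% (2.77% to 5.04%) in Asn-free B. In Asn-fed A it had 0 of 619 desmoglein reads, which allows up to 0.485% of those reads (3 reads) and, by the exact interval, up to 0.703% of the level per length, and in Asn-fed B 0.586% (0.16% to 1.49%).

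Of the desmocollins, which pair with desmogleins across the junction, Dsc2 was the one expressed. It was at 3.32 and 3.71 CPM in Asn-free libraries A and B and at 4.08 and 3.54 CPM in Asn-fed A and B. The groups overlapped. The log2 fold change was -0.11 ± 0.21 (SE, edgeR adjusted p = 0.811), on 61 to 106 reads per library. Dsc3, the desmocollin of basal cells, had 4 and 1 reads without asparagine and 0 and 2 with it, too few for a test. Dsc3 made up 6.02% (exact 95% interval 1.66% to 14.7%) and 1.16% (0.0294% to 6.31%) of the desmocollin level in Asn-free libraries A and B and 1.81% (0.22% to 6.39%) in Asn-fed B, and its 0 of 97 desmocollin reads in Asn-fed A allow up to 3.09% of those reads (3 reads) and, by the exact interval, up to 3.65% of the level per length. Of the summed level of Dsg2 and Dsc2, Dsg2 held 92.2% (exact 95% interval 90.1% to 93.9%) and 91.1% (89.1% to 92.8%) in Asn-free libraries A and B, and 80.3% (76.7% to 83.6%) and 82.9% (79.8% to 85.7%) in the Asn-fed pair, with no overlap between the groups.

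The desmosomal cadherin genes form a cluster of 9 genes on chromosome 18 (GRCm38, from 19960930 to 20604521) with no other protein-coding gene between them in GENCODE M21. In order they are Dsc3, Dsc2 and Dsc1 on the minus strand, then Dsg1c, Dsg1a, Dsg1b, Dsg4, Dsg3 and Dsg2 on the plus strand. Most reads of the cluster came from Dsg2 at one end, with fewer from Dsc2 near the other. Dsc3, at that other end, had at most 4 reads in a library. The 5 genes between Dsc2 and Dsg3 are cadherins of differentiated or hair-forming keratinocytes, and each had 0 to 3 reads in every library. Dsg2 lies at the distal end, from 20558074 to 20604521, with Dsg3 beside it from 20510274 to 20547459. Dsc2 lies from 20030633 to 20059554 and Dsc3 from 19960930 to 20002351. Dsg2 was called higher, its neighbour Dsg3 was too sparse for a firm value, and Dsc2 in the same cluster overlapped between the groups.

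Perp, on chromosome 10 from 18845020 to 18857073, was at 104.2 and 114.1 CPM in Asn-free libraries A and B and at 59.1 and 60.2 CPM in Asn-fed A and B. Both libraries without asparagine were well above both with it. The means were 109 ± 7.0 CPM and 59.7 ± 0.762 CPM (SD, n = 2 each), and the log2 fold change was 0.87 ± 0.11 (SE, edgeR adjusted p = 0.0144). The call was lost without Asn-fed A (log2 fold change 0.86, adjusted p = 0.219) and without Asn-fed B (0.88, adjusted p = 0.199), where the size hardly moved and the SE was 0.23. Trp53, which encodes p53, was at 83.3 and 86.4 CPM without and 62.6 and 63.9 CPM with asparagine (log2 fold change 0.42, edgeR adjusted p = 0.101, not called). It is named beside Perp after its values were seen.

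Plakoglobin (Jup), on chromosome 11 from 100368958 to 100397763, serves both desmosomes and adherens junctions. It was at 34.0 and 43.3 CPM in Asn-free libraries A and B and at 27.5 and 31.1 CPM in Asn-fed A and B. The groups did not overlap, but Asn-free A lay nearer to Asn-fed B than to its own partner. The log2 fold change was 0.40 ± 0.15 (SE, edgeR adjusted p = 0.229), so Jup was not called. The log2 fold change was 0.56 without Asn-free A and 0.21 without Asn-free B.

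Among the plakophilins, which strengthen the link between cadherins and desmoplakin, Pkp2 and Pkp3 were the main forms. Pkp2, the plakophilin of simple epithelia and heart, was at 39.6 and 39.9 CPM in Asn-free libraries A and B and at 29.2 and 27.3 CPM in Asn-fed A and B. The groups were separate and tight. The log2 fold change was 0.49 ± 0.11 (SE) and missed the threshold (edgeR adjusted p = 0.0855). It was 0.50 without Asn-free A, 0.49 without Asn-free B, 0.54 without Asn-fed A and 0.44 without Asn-fed B.

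Pkp3, found in most epithelial desmosomes, was at 21.1 and 21.4 CPM in Asn-free libraries A and B and at 19.2 and 17.1 CPM in Asn-fed A and B. The gap between the groups was about as wide as that between the 2 libraries with asparagine. The log2 fold change was 0.23 ± 0.13 (SE, edgeR adjusted p = 0.380). Pkp1, the plakophilin of stratified epithelium, was at 3.11 and 4.83 CPM without asparagine and at 1.89 and 2.30 CPM with it, on 45 to 108 reads. The groups did not overlap, but Asn-free A lay nearer to the other group than to its own partner. The log2 fold change was 0.92 ± 0.28 (SE), as large as that of Perp, and was not called (edgeR adjusted p = 0.171). It was 1.19 without Asn-free A and 0.55 without Asn-free B.

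Of the plakophilin level per length, Pkp2 made up 50.9 ± 2.08%, Pkp3 44.3 ± 3.06% and Pkp1 4.75 ± 1.40% (mean ± SD over the 4 libraries). These SDs span both media. Pkp2 held 53.3% and 51.9% in Asn-free libraries A and B and 48.8% and 49.5% in Asn-fed A and B. Pkp3 held 42.2% and 41.3% in the Asn-free pair and 47.8% and 46.0% in the Asn-fed pair. In counts not divided by length, Pkp2 held 59.7% and Pkp3 35.1%. Pkp1 lies on chromosome 1 from 135871395 to 135919207, Pkp2 on chromosome 16 from 16213318 to 16272712 and Pkp3 on chromosome 7 from 141078218 to 141090510.

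Desmoplakin (Dsp), the plakin without which desmosomes do not hold keratin filaments, lies on chromosome 13 from 38151294 to 38198577. It was at 177.7 and 177.1 CPM in Asn-free libraries A and B and at 96.9 and 103.9 CPM in Asn-fed A and B. The libraries without asparagine were almost equal, and both were far above the others. The means were 177.4 ± 0.397 CPM and 100.4 ± 4.98 CPM (SD, n = 2 each), and the log2 fold change was 0.82 ± 0.10 (SE, edgeR adjusted p = 0.0145). The call was lost without Asn-fed A (0.77, adjusted p = 0.317) and without Asn-fed B (0.87, adjusted p = 0.201), where the SE was 0.23. In GENCODE M21, 5.17% of its exon bases overlap Gm10129 on the opposite strand.

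The stretch just before the transcription start is shown for Dsp, as the called member with a promoter in the RefSeq table used (GRCm38.p6), and for Jup, as a member that was not called. Promoters were found there for 2 of the 10 members. Each is 250 bases long, runs 5′ to 3′ on the gene's strand and ends at the base before the RefSeq start. Capitals mark the GC box GGGCGG on either strand. For Jup the RefSeq start lies upstream of the GENCODE M21 start at 100397763. The Dsp stretch is chr13:38151044-38151293 on the plus strand and the Jup stretch is chr11:100397791-100398040 on the minus strand.
Dsp: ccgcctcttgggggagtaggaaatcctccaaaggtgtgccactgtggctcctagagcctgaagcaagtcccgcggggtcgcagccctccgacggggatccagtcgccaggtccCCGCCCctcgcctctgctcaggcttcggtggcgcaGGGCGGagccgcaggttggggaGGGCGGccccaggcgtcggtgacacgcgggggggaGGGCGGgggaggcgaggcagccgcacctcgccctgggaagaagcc
Jup: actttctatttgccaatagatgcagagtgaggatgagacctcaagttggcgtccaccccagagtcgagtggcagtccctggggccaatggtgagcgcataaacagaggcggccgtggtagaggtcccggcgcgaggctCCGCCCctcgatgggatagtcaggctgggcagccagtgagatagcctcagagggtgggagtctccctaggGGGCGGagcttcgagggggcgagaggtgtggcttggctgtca
The Dsp stretch held 4 GC boxes and the Jup stretch 2, and 32.7% of 32851 RefSeq promoter stretches of the same length held at least 1. The E-box CACCTG, searched on both strands, was in neither, and 17.2% of the stretches held it. No GC box overlapped an E-box. G and C made up 72.4% of the Dsp stretch and 62.0% of the Jup stretch, against a median of 52.4% over all stretches.

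**Figure D3:**
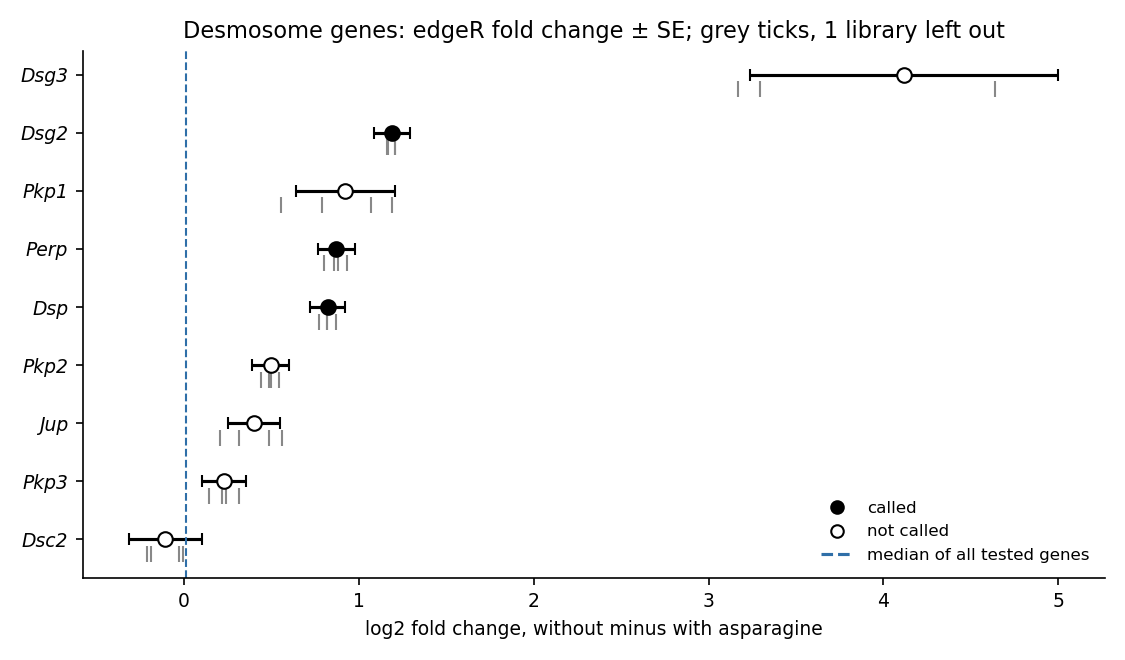
edgeR log2 fold change (without minus with asparagine) ± SE of the 9 tested desmosome genes, with filled points for called genes, the dashed line at the median of all tested genes, and grey ticks for the value with each library left out in turn. For Dsg3 the tick without Asn-fed B is not drawn, because the library left in that group had 0 reads. Dsg2, Perp and Dsp are called, with log2 fold changes of 0.82 to 1.19, and Dsc2 lies at -0.11.

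Desmosomes hold keratins, some through plakins, and 16 linker and keratin genes were examined next to the members. Of the 9 with enough reads, 2 were called higher and 1 lower (0.771% and 1.07% of all tested genes), with a median log2 fold change of 0.21. Krt14, the keratin of basal cells, rose from 3.99 and 4.97 CPM to 32.6 CPM in Asn-free A and 27.4 CPM in Asn-free B (log2 fold change 2.73 ± 0.17, edgeR adjusted p = 0.00434). Krt16, a keratin of stressed and wound-edge epithelium, rose from 0.336 and 0.200 CPM to 2.13 and 2.19 CPM (3.02 ± 0.38, edgeR adjusted p = 0.0158). Krt16 passed the filter on low counts only through the group where it was high, its values rest on 6 to 49 reads, and the call was lost without Asn-fed B (adjusted p = 0.124). Ppl, which encodes periplakin, a relative of desmoplakin, moved the other way. It fell from 142 and 145 CPM to 100.5 and 96.3 CPM (log2 fold change -0.55 ± 0.10, edgeR adjusted p = 0.0481), a call lost with upper quartile scaling (-0.50, adjusted p = 0.0716), with a filter of 5 CPM in 2 libraries (adjusted p = 0.0502) and when either Asn-fed library was left out (adjusted p = 0.642 without A and 0.667 without B). Krt5, the usual partner of Krt14, had 0 to 2 reads in each library.

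Of 24 genes listed here as regulators of epithelial gene expression, or of desmosome assembly or shedding, 21 were tested. Of these, 2 were called higher and 0 lower (0.771% and 1.07% of all tested genes). At an unadjusted p under 0.05, 8 were higher and 4 lower by edgeR (8.65% and 9.48% of all). Among the 8, Grhl3 passed the filter on low counts only through the group where it was high. It had 10 and 13 reads without and 3 and 5 with asparagine. By limma-voom and by DESeq2, 2 of the list were called higher and 0 lower. The median log2 fold change of the list was 0.20. Esrp1, an epithelial splicing regulator, rose from 6.39 and 6.97 CPM to 15.4 and 19.0 CPM (1.37 ± 0.16, edgeR adjusted p = 0.0138). Grhl1, a grainyhead-like transcription factor known to activate desmosomal cadherin genes in epidermis, rose from 0.883 and 0.867 CPM to 3.16 and 2.55 CPM (1.70 ± 0.28, edgeR adjusted p = 0.0368), on 21 to 58 reads per library. Both calls were lost when either Asn-fed library was left out, at adjusted p of 0.0577 without A and 0.0505 without B for Esrp1, and 0.274 and 0.310 for Grhl1. The 5 repressors of epithelial genes in the list, Zeb1, Zeb2, Snai1, Snai2 and Twist1, had 4 tested members, a median of 0.00 and no call. The tested members went both ways, with log2 fold changes above 0 for 2 and below 0 for 2. Snai2 had 0 reads in every library.

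The adherens junction list, which shares the epithelial cell border with the desmosome, had a median log2 fold change of -0.03 over 16 tested members of 22, with 8 above and 8 below 0. No member was called by edgeR or limma-voom, and DESeq2 called 1, Cdh1. At an unadjusted p under 0.05, 2 were higher and 3 lower by edgeR, against 8.65% and 9.48% of all tested genes. The smallest p values were those of Cdh1, which had 349 and 414 CPM without and 262 and 277 CPM with asparagine (0.50 ± 0.12, edgeR adjusted p = 0.106), and of Camsap3, a microtubule-anchoring protein gene, which had 2.07 and 1.83 CPM without and 1.09 and 0.734 CPM with asparagine (1.11 ± 0.32, edgeR adjusted p = 0.155). A difference between this list and the desmosome genes was not tested.

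**Figure D4:**
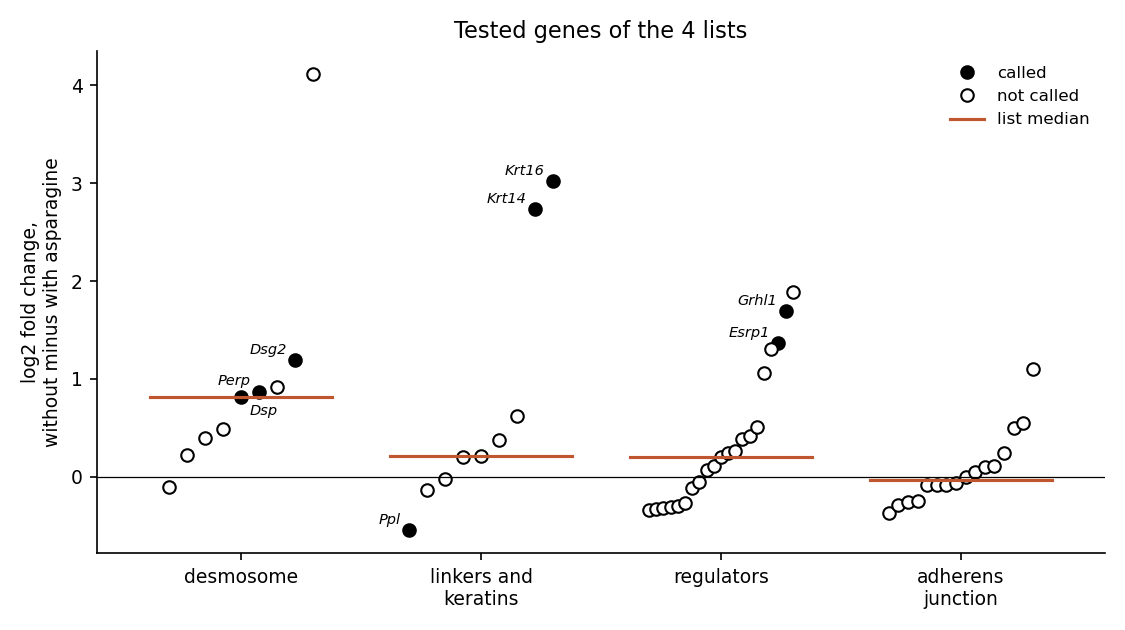
edgeR log2 fold change (without minus with asparagine) of each tested gene in the 4 lists, sorted within a list, with filled and labelled points for called genes and orange lines for list medians. The medians are 0.82 for the 9 desmosome genes, 0.21 for 9 linker and keratin genes, 0.20 for 21 regulators and -0.03 for 16 adherens junction genes.

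Further genes of desmosome families were mostly silent. Cdsn, which encodes corneodesmosin of cornified cells, had 10 and 15 reads in Asn-free libraries A and B and 1 and 8 in Asn-fed A and B, and passed the filter only through the higher group (log2 fold change 1.85 ± 0.67, edgeR adjusted p = 0.222). Pmp22 and Tmem47 encode membrane proteins of the same broad family as Perp. Pmp22 was at 53.2 and 52.1 CPM without and 72.1 and 73.5 CPM with asparagine, opposite in direction to Perp, and was not called (-0.47 ± 0.10, edgeR adjusted p = 0.0788). Tmem47 had at most 1 read in a library.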

How the data were processed

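RNA of 4 libraries was sequenced, 2 without and 2 with asparagine. Per the labels' protocols, a Qiagen kit was used for total RNA, which was amplified with NuGEN Ovation V2. Per the submitters' processing notes, the authors used Bowtie2 and HTSeq on mm10, with versions, annotation and strand setting being not given in the sources used here. Raw counts per gene symbol are what the authors deposited. The 5 HTSeq summary rows, 60.1% to 70.0% of reads, were left out.

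Genes passing filterByExpr (minimum count 10, minimum total 15), 12843 in all, were TMM-scaled, then tested in edgeR 4.0.16 (quasi-likelihood F test, Benjamini-Hochberg over all genes, threshold 0.05) in R 4.3.3. SE is the log2 fold change divided by the square root of F. Separate cultures are not mentioned in the labels, so the spread that p-values rest on may be technical. The members, lists and tests were chosen with earlier results of these data known. All members are named, with the called genes of each other list or, where there was none, the 2 with the smallest p. Alternatives were the DESeq2 1.42.0 size factors and Wald test, limma-voom 3.58.1, upper quartile scaling, other filters, the letter as replicate block, 1 library left out at a time and the 10 most abundant genes left out. Positions and lengths came from GENCODE M21 (GRCm38, the assembly of mm10). Intervals cover counting error only.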

Additional observations from a re-analysis of the deposited data

How the results depend on the processing

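The direction of all 9 tested members held under each alternative that tested them, and the call for Dsg2 held under all 12. Members called higher numbered 3 in the reported test, 6 with no low-count filter and 6 with the replicate block by letter. Of all genes, 99 of 12843, 615 of 19828 and 344 of 12843 were called higher in these settings. With the block Dsg3, Pkp1 and Pkp2 joined the calls (adjusted p = 1.834e-04, 0.0407 and 0.0313). The median log2 fold change of the desmosome members was 0.67 with a filter of 5 CPM in 2 libraries, which tested 6 members, and 0.55 to 0.87 with a library left out. Genes called over the whole table numbered 99 higher and 138 lower, against 170 and 259 by DESeq2, 615 and 719 with no filter, 344 and 472 with the block, and 24 to 2502 and 24 to 2861 with a library left out. Adherens junction genes called higher numbered 1 by DESeq2, 2 with no filter and 1 with the block, while 1 was lower with no filter. With either Asn-free library left out, genes of this list and of the linker and keratin list were called in both directions. Linker and keratin genes called higher numbered 1 with the 5 CPM filter, and those called lower 0 with that filter and 0 with upper quartile scaling. Of all genes, 71 of 9867 were called higher and 116 lower with that filter, and 107 and 113 of 12843 with that scaling. Regulators called higher numbered 1 with the 5 CPM filter, 4 with no filter and 0 to 7 with a library left out, and those called lower 0 to 6. The causes of these differences were not tested. The letters name libraries and no label ties them to a shared culture or day. Across genes, the A minus B deviations of the groups had a Pearson correlation of 0.123. A group reduced to 1 library was taken to vary as the other group did. The depth limits Dsg3 and Dsc3, at 44 reads or fewer per library.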
